A study of Homo sapiens with 8 samples.

Results

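The genes described here are a list of 38 that make up the degradative lysosome: 21 hydrolases, 2 lipid-handling cofactors, 7 membrane proteins, 6 subunits or partners of the proton pump, and TFEB and TFE3, transcription factors of the MiT/TFE family. They were listed by name, and 37 of the 38 were measured, among 19775 genes in all. GLB1, the lysosomal beta-galactosidase, is the gene without a value, because its probe sets carry more than 1 symbol. The genes were read from total RNA of NCI-H1975, an established human lung adenocarcinoma cell line that depends on a mutant EGFR receptor and also carries a mutated PIK3CA gene, hybridised to Affymetrix 3′ expression arrays. Cultures received the vehicle DMSO, 10 nM osimertinib, 1 µM alpelisib or both drugs for 24 hours, each without L-histidinol and with 2 mM L-histidinol. That gives 8 conditions with 1 array each. Osimertinib covalently blocks mutant EGFR, alpelisib blocks the PI3K catalytic subunit p110 alpha, and L-histidinol prevents histidine from being charged onto its tRNA. The comparisons ask what these genes do when either signal, or both, are blocked, and when an amino acid appears scarce. All values come from 1 cell line, and the labels do not say whether conditions were separate cultures beyond their arrays.

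Lysosomes degrade material delivered by endocytosis and autophagy. Their soluble hydrolases work at acidic pH, which the V-ATPase proton pump provides, and their limiting membrane carries heavily glycosylated proteins, transporters and channels. TFEB and TFE3 bind a short palindromic promoter motif found upstream of many lysosomal genes, and mTORC1, which lies downstream of PI3K and senses amino acids at the lysosomal surface, holds these factors in the cytoplasm. A transcript level reports neither enzyme activity nor acidity.

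The deposited values are linear intensities, taken here as log2, so 1 unit is a 2-fold change. Each gene was represented by the probe set of its symbol alone with the highest mean over the 8 arrays, and a level is never set against that of another gene, because probe sets differ in brightness. The L-histidinol comparison rests on 4 array pairs and each drug treatment over 2 arrays against 2. An additive limma model supplied the differences, which are given ± SE, and p-values adjusted over all genes with a threshold of 0.05. With 1 array per condition the spread is the departure of arrays from additivity, so the p-values measure only the spread between these arrays. Median intensity per array lay between 21.8 and 22.4. ERK output was lower with osimertinib (DUSP6, -3.99 ± 0.18) and the amino acid response gene ASNS was higher with L-histidinol (2.02 ± 0.12). The epithelial marker EPCAM had a mean log2 intensity of 12.15 and the lung factor NKX2-1 one of 8.53. The 7 leukocyte and osteoclast markers together summed to an intensity of 155.2 to 188.6 per array, with PTPRC at a mean log2 of 2.82 and CSF1R alone above 5. The 7 fibroblast and endothelial markers summed to 135.2 to 159.2, with LUM at 2.17, CDH5 at 2.71 and COL3A1 at 2.83, and with PECAM1 and PDGFRB, the brightest, at 5.18 and 5.38. Of these 7 markers LUM (1.23 ± 0.16) and CDH5 (0.78 ± 0.15) were higher with the combination, and 2 of 7, LUM among them (0.63 ± 0.16), were higher with osimertinib. The part of such cells in the lysosomal values was not tested. In bulk RNA, more cells with a transcript and more transcript per cell cannot be told apart.

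Both drugs together raised most of the lysosomal genes, osimertinib alone raised many, alpelisib alone raised fewer and by less, and L-histidinol moved them in both directions. With the combination 30 of 37 rose and 3 fell, against 40.6% of all genes called, 21.4% higher and 19.2% lower, and the median change was 0.50 for the list and -0.00 for all genes. With osimertinib 26 rose and 3 fell, against 30.4% of all genes called, 16.4% higher and 14% lower, with a median of 0.34. With alpelisib 15 rose and 0 fell in the limma fit, against 11.5% of all genes called, 7.08% higher and 4.38% lower, with a median of 0.21. At an unadjusted p under 0.05, alpelisib gave 24 higher and 2 lower, and 24.6% of all genes had such a p. The 15 became 6 without the alpelisib array and 5 without the array with L-histidinol and alpelisib, and the 3 that fell with osimertinib became 1 without the array with L-histidinol and osimertinib. With L-histidinol 10 rose and 7 fell, against 20.6% of all genes called, 11.4% higher and 9.17% lower, with a median of 0.06. These shares of all genes include dim genes, which were called less often, whereas 1 member had a mean log2 under 5. Of the 11627 genes with a mean log2 of at least 5, 3898 rose and 3614 fell with the combination. For osimertinib they split into 3194 and 2780, for alpelisib into 1540 and 1051, and for L-histidinol into 2397 and 1840. Beside these the L-histidinol counts of the members stand out less. Members that passed in at least 1 of these comparisons numbered 34, and ATP6V1A, ATP6V1H and TFEB passed in 0 of the 4. When each array was centred on its median, the median of all genes moved to -0.13 with the combination, -0.09 with osimertinib and -0.08 with alpelisib. All genes then split into 3178 higher and 5516 lower with the combination (4233 and 3800 without centring), 2289 and 4123 with osimertinib (3246 and 2765) and 953 and 2000 with alpelisib (1401 and 866). Of the members 26 rose and 5 fell with the combination on that scale, 21 and 4 with osimertinib, and 11 and 2 with alpelisib.

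The 3 classes had median changes of different size. With the combination 16 of the 20 measured hydrolases rose and 3 fell (median 0.76), 7 of 7 membrane proteins rose (median 0.48), and 4 of 6 pump genes rose and 0 fell (median 0.24). The same order of medians was seen with osimertinib, at 0.45, 0.31 and 0.18, and with alpelisib, at 0.27, 0.16 and 0.12. The difference between classes was not tested. Relative to each gene's own mean, the median hydrolase lay at -0.48 on the vehicle array, -0.10 with alpelisib, 0.07 with osimertinib and 0.45 with both drugs. The median pump gene moved over a narrower span, from -0.04 with vehicle to -0.03, 0.11 and 0.09. With L-histidinol the median hydrolase lay at -0.37, -0.06, 0.11 and 0.34 in the same order of drug treatments. A strict rise from vehicle through alpelisib and osimertinib to both drugs, an order chosen after the values were seen, was present both without and with L-histidinol for 18 of 37 members (48.6%) and for 9.74% of all genes. These 18 comprised 13 hydrolases, PSAP, the membrane proteins LAMP1, NPC1 and SCARB2, and the pump partner ATP6AP1. Members highest on the array with both drugs numbered 13 and on its L-histidinol counterpart 12, while 18 were lowest with vehicle and 11 with L-histidinol alone.

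**Figure D1:**
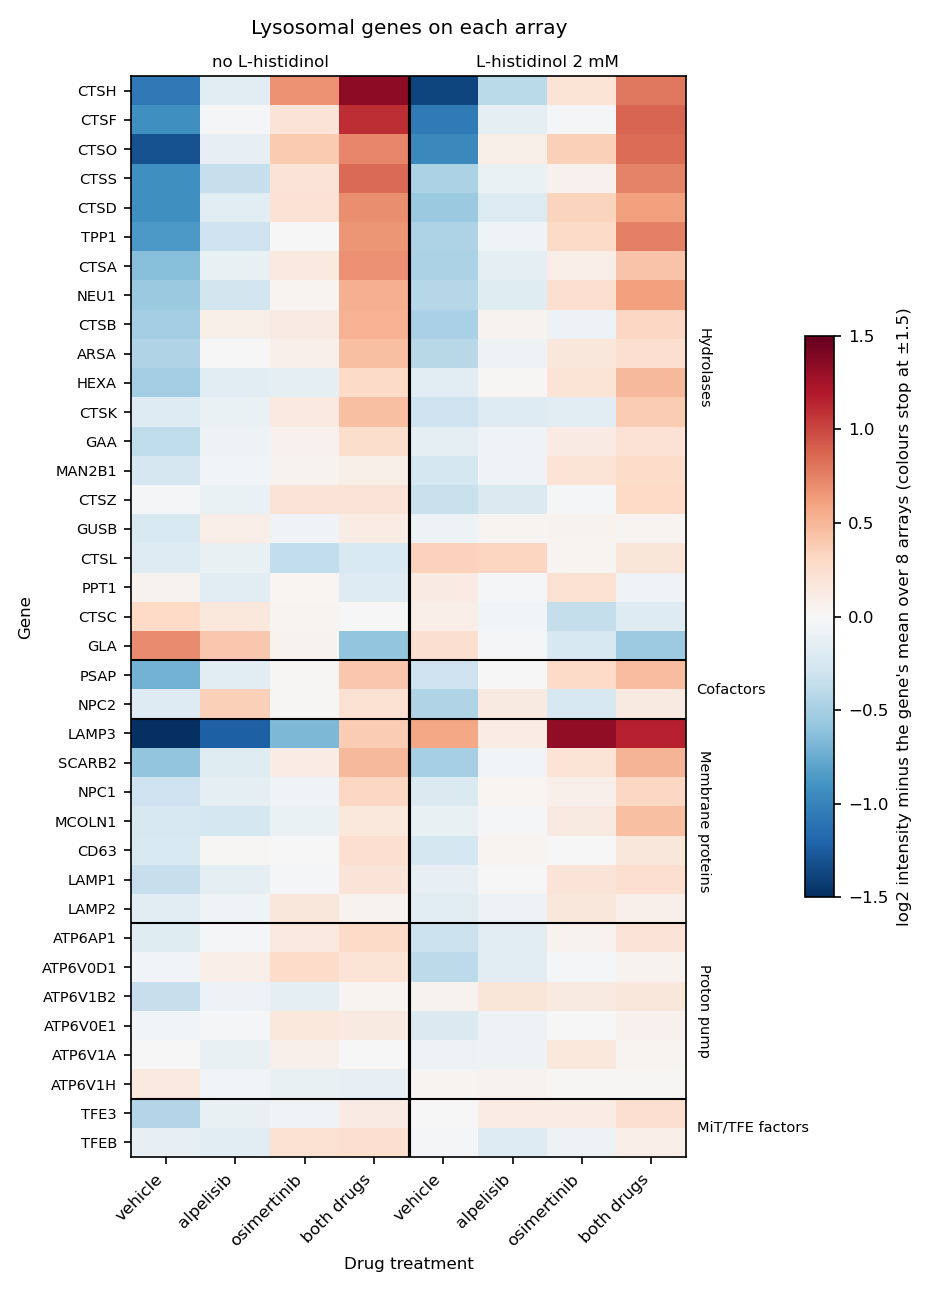
Log2 intensity of each of the 37 measured genes (rows, grouped by class) on each of the 8 arrays (columns), minus that gene's own mean over the arrays; blue is below and red above the mean, and colours stop at ±1.5. Most hydrolases pass from blue with vehicle to red with both drugs on either side of the black line, GLA runs the other way, and the pump rows stay pale.

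Promoter sequence was examined because the MiT/TFE factors bind an E-box within a wider palindrome. RefSeq promoters (GRCh38.p14, 250 bases before to 50 bases after the annotated start, on the gene's own strand) were given for 25 of the 38 members and for 27305 genes. The core of the motif, TCACGTGA, reads the same on both strands and contains the E-box, CACGTG, so every core match is also an E-box match. The core was found in 5 of 25 members (20%) and in 1.18% of the 27305 genes, whether measured here or not. The E-box was found in 9 of 25 (36%) and in 8.77%. The composite ATF4-C/EBP motif TGATGNAAN was searched on both strands because L-histidinol acts on an amino acid response. It was found in 0 of 25 members and in 4.45% of the 27305 genes. The upstream windows of 3 genes with the core and of 2 cathepsins with an E-box are shown, in lower case with the matches in capitals (the core in the first 3, the E-box in the others), because they show the motif in a protease, a glycosidase and a channel, and in proteases with large changes. They lie at chr20:45891085-45891334 on the + strand (CTSA), chr17:80101331-80101580 on the + strand (GAA), chr19:7522374-7522623 on the + strand (MCOLN1), chr11:1763928-1764177 on the - strand (CTSD) and chr11:66568607-66568856 on the - strand (CTSF).
CTSA: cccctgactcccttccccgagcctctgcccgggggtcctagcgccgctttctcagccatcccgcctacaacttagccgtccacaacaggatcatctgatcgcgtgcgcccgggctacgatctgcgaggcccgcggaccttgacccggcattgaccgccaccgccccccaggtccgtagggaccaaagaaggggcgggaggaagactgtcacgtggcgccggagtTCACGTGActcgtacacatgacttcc
GAA: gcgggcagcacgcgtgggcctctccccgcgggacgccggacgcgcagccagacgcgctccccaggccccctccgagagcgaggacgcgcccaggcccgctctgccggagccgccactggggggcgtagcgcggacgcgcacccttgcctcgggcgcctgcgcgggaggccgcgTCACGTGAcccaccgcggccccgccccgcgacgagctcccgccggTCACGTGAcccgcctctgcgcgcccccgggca
MCOLN1: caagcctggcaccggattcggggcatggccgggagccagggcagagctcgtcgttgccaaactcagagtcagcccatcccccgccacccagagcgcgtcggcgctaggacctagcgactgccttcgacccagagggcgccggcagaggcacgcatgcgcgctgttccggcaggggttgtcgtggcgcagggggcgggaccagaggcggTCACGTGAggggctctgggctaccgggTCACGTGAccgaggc
CTSD: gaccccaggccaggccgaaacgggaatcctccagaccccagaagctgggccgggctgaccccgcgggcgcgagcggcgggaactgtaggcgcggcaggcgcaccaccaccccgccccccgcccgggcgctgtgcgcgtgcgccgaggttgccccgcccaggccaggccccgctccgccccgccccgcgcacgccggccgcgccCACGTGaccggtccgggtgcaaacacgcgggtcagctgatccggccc
CTSF: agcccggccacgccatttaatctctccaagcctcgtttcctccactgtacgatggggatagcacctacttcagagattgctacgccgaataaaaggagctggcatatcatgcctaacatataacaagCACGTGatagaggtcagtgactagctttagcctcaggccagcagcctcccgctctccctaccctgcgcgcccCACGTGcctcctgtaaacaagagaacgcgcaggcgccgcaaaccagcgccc
GAA and MCOLN1 hold the core at 2 places in this window, and CTSF holds 2 E-boxes, at positions -123 and -51 relative to the start. ATP6V0D1 and LAMP1 were the other members with the core, and CD63 and NEU1 the others with an E-box. The 5 members with the core all rose with the combination, by 0.35 to 1.12 with a median of 0.48. Of the 19 tested members without it 14 rose and 3 fell, with a median of 0.45. Of all 255 tested genes with the core 38% rose and 23.5% fell with the combination, and of 15129 without it 21.9% rose and 20.3% fell. The 9 members with an E-box all rose, and of 15 without it 10 rose and 3 fell. Of all 1672 tested genes with an E-box 25.2% rose and 26.9% fell, and of 13712 without it 21.7% and 19.6%. A link between motif and change was not tested. CTSH, whose change was the largest of all members, had a promoter in the table and no match to either motif.

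The cysteine cathepsins held the largest changes. Of the 9 measured, 7 rose and 1 fell with the combination, 6 rose and 2 fell with osimertinib, 5 rose and 0 fell with alpelisib, and 1 rose and 3 fell with L-histidinol. CTSH, an aminopeptidase among the cathepsins, lay at log2 8.64 with vehicle, 9.55 with alpelisib, 10.39 with osimertinib and 11.05 with both drugs, and with L-histidinol at 8.33, 9.31, 9.92 and 10.50 in that order. All 6 drug-treated arrays were above both arrays without a drug, and each L-histidinol array was below its partner. The fit gave 2.29 ± 0.08 for the combination (4.89-fold, adjusted p = 1.1e-08), 1.67 ± 0.08 for osimertinib, 0.94 ± 0.08 for alpelisib and -0.39 ± 0.06 for L-histidinol, and every one of these passed. CTSF, a cathepsin with a long propeptide whose promoter is shown above, ran 7.52, 8.41, 8.64 and 9.55 without L-histidinol and 7.38, 8.30, 8.43 and 9.32 with it. The alpelisib and osimertinib arrays lay close together for this gene, and the arrays with both drugs stood well above them. It rose by 1.99 ± 0.07 with the combination (3.97-fold), 1.09 ± 0.07 with osimertinib and 0.90 ± 0.07 with alpelisib.

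CTSO, a cysteine protease of uncertain role, ran 5.40, 6.59, 7.11 and 7.44 without L-histidinol and 5.74, 6.80, 7.07 and 7.55 with it. It was lowest on the 2 arrays without a drug, and all 3 drug treatments passed, at 1.12 ± 0.11 for alpelisib, 1.52 ± 0.11 for osimertinib and 1.93 ± 0.11 for the combination. CTSS, which trims the invariant chain of MHC class II in antigen-presenting cells, ran 6.70, 7.27, 7.81 and 8.47, and with L-histidinol 7.15, 7.52, 7.68 and 8.36. Its changes were 0.47 ± 0.13, 0.82 ± 0.13 and 1.49 ± 0.13, and its other 2 probe sets gave 0.86 and 1.57 for the combination. With the mean of the 3 the alpelisib value was 0.41 (adjusted p = 0.101). The alpelisib value for CTSS lost its call without the vehicle array (0.25, adjusted p = 0.324) or without either alpelisib array. The leukocyte marker PTPRC lay at 2.71 to 2.88 on all arrays, and CSF1R, another gene of that list, was higher by 0.31 ± 0.10 with osimertinib and by 0.33 ± 0.10 with the combination. The part of such cells in the CTSS and CTSK values was not tested.

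CTSB, an abundant endo- and exopeptidase, ran 10.13, 10.73, 10.76 and 11.16, and with L-histidinol 10.16, 10.69, 10.56 and 10.95. Alpelisib (0.57 ± 0.07) and osimertinib (0.51 ± 0.07) gave changes of similar size, and the combination gave 0.91 ± 0.07. All 5 of its probe sets rose with each drug treatment. CTSK, a collagenase best known from osteoclasts, ran 5.17, 5.26, 5.51 and 5.81, and with L-histidinol 5.05, 5.17, 5.20 and 5.74. It rose with the combination (0.67 ± 0.11), while the values for osimertinib (0.25 ± 0.11) and alpelisib (0.11 ± 0.11) did not pass. CTSZ, a carboxypeptidase, rose by 0.42 ± 0.09 with the combination and 0.26 ± 0.09 with osimertinib, the latter call being lost without any of the 4 single-drug arrays or the L-histidinol array (0.15, adjusted p = 0.323 without the last).

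CTSL and CTSC stood apart from the other cathepsins. CTSL, an endopeptidase, rose with L-histidinol in all 4 pairs, by 0.55, 0.41, 0.43 and 0.42 (fit 0.45 ± 0.04, adjusted p = 5.5e-05), so that the 4 L-histidinol arrays, at 10.67 to 10.97, were all above the 4 others, at 10.26 to 10.52. It fell with osimertinib (-0.24 ± 0.06), a call lost without the L-histidinol array (-0.18) or that with L-histidinol and osimertinib (-0.21), and its value for the combination, -0.10 ± 0.06, did not pass. CTSC, which activates granule serine proteases by removing dipeptides, fell with osimertinib (-0.35 ± 0.07), with the combination (-0.29 ± 0.07) and with L-histidinol (-0.25 ± 0.05). The osimertinib call was lost without the array with L-histidinol and osimertinib (-0.25). Its other probe sets differed. The brightest of them had no call for osimertinib (-0.16) or the combination (-0.13) and fell with L-histidinol (-0.41). The dimmer ones fell with osimertinib (-0.41 in both) and the combination (-0.54 and -0.39), with no call for L-histidinol (-0.11 and -0.06).

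**Figure D2:**
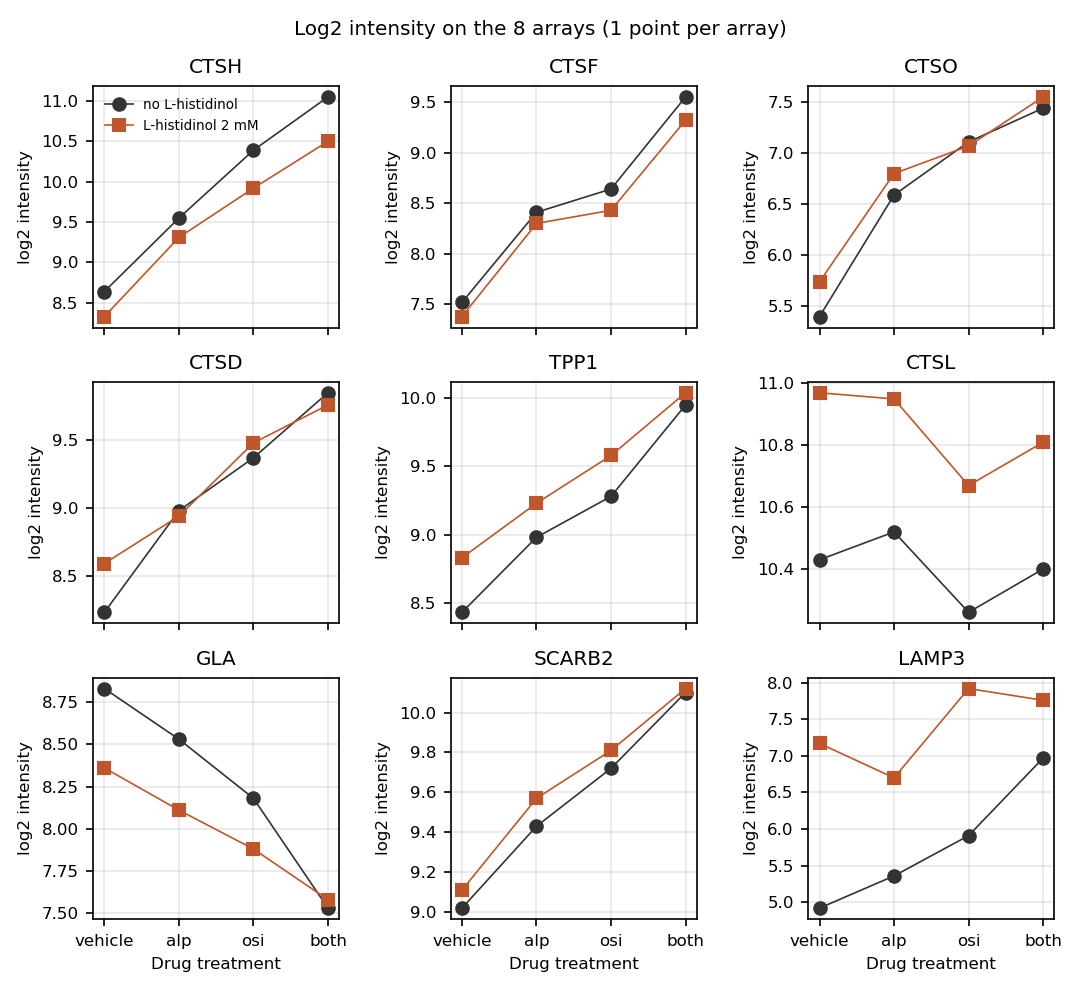
Log2 intensity (vertical axes, each with its own range) of 9 of the genes with vehicle, alpelisib (alp), osimertinib (osi) and both drugs, 1 point per array; circles are arrays without and squares arrays with 2 mM L-histidinol, and lines only join points. CTSH spans 8.33 to 11.05 and GLA falls from 8.83 to 7.53, while L-histidinol separates the 2 lines of CTSL and LAMP3 and hardly those of SCARB2.

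The other 3 lysosomal proteases rose with every drug treatment. CTSD, the main aspartic protease, with an E-box in its promoter shown above, ran 8.23, 8.98, 9.37 and 9.85, and with L-histidinol 8.59, 8.94, 9.48 and 9.76. The vehicle array was the lowest of the 8, and the change was 1.39 ± 0.10 for the combination (2.62-fold), 1.01 ± 0.10 for osimertinib and 0.54 ± 0.10 for alpelisib. TPP1, an aminopeptidase that releases tripeptides, ran 8.43, 8.98, 9.28 and 9.95, and with L-histidinol 8.83, 9.23, 9.58 and 10.04. Each L-histidinol array lay above its partner, and the changes were 1.37 ± 0.08 for the combination, 0.80 ± 0.08 for osimertinib, 0.48 ± 0.08 for alpelisib and 0.25 ± 0.06 for L-histidinol. Of the other TPP1 probe sets 2 gave 1.29 and 1.21 for the combination, and the dimmest gave 0.40 with no call for osimertinib (0.11), alpelisib (0.07) or L-histidinol (-0.00). CTSA, a serine carboxypeptidase that also protects NEU1 from degradation, ran 10.50, 11.03, 11.29 and 11.83, and with L-histidinol 10.66, 11.00, 11.24 and 11.57. It rose by 1.12 ± 0.08 with the combination, 0.68 ± 0.08 with osimertinib and 0.43 ± 0.08 with alpelisib. Without either alpelisib array the alpelisib calls for CTSD, CTSA and TPP1 were lost (CTSA 0.42 with adjusted p = 0.145 without the one with L-histidinol), and CTSA lost it without the vehicle array as well (0.29, adjusted p = 0.0606). Without the vehicle array the alpelisib value of CTSD was 0.36. TPP1 lost its L-histidinol call without the osimertinib array or its partner (0.24 in both).

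Among the enzymes that cleave sugars and lipids, the sialidase NEU1 rose furthest and the alpha-galactosidase GLA fell. Of the 6 measured glycosidases 5 rose and 1 fell with the combination, 4 rose and 1 fell with osimertinib, and 2 rose with alpelisib. NEU1 ran 7.89, 8.17, 8.48 and 8.97, and with L-histidinol 8.01, 8.26, 8.69 and 9.06. The order of drug treatments was the same on both sets of arrays, and the changes were 1.06 ± 0.07 for the combination, 0.63 ± 0.07 for osimertinib and 0.26 ± 0.07 for alpelisib, the last losing its call without any 1 of 6 arrays (0.23, adjusted p = 0.291 without the alpelisib array). GLA, the enzyme deficient in Fabry disease, ran 8.83, 8.53, 8.18 and 7.53, and with L-histidinol 8.36, 8.11, 7.88 and 7.58. This was the reverse of the order of NEU1, with vehicle highest and both drugs lowest. GLA fell by 1.04 with the combination (SE 0.11, 2.06-fold, adjusted p = 1.4e-05), by 0.57 with osimertinib and by 0.28 with L-histidinol, and its value for alpelisib, -0.28 ± 0.11, did not pass. The pair with both drugs differed in sign for L-histidinol (0.05, against -0.46, -0.30 and -0.42), and the L-histidinol call was lost without any 1 of the other 6 arrays, with changes of -0.28 to -0.23.

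HEXA, the alpha subunit of beta-hexosaminidase, ran 8.77, 9.13, 9.14 and 9.58, and with L-histidinol 9.12, 9.31, 9.49 and 9.78. It passed in all 4 comparisons, at 0.74 ± 0.07 for the combination, 0.37 ± 0.07 for osimertinib, 0.28 ± 0.07 for alpelisib and 0.27 ± 0.05 for L-histidinol. Its 3 other probe sets, with mean log2 of 3.33 to 4.85, gave -0.11, 0.19 and 0.47 for the combination, of which the last passed. With the mean of the 4 probe sets the combination value was 0.32 and the other 3 calls were lost, and without the marked probe sets, whose names show possible cross-hybridisation, 0 of the 4 calls remained (combination 0.19, alpelisib -0.20). GAA, which digests glycogen, rose with the combination (0.50 ± 0.09) and osimertinib (0.36 ± 0.09), as did the alpha-mannosidase MAN2B1 (0.44 ± 0.09 and 0.39 ± 0.09), and GUSB, the beta-glucuronidase, rose with the combination alone by 0.23 ± 0.07. The GUSB call was lost without the vehicle array (0.15) or the array with both drugs (0.16). The osimertinib call of GAA was lost without the vehicle array (0.25) or either osimertinib array (0.36 in both), and that of MAN2B1 without the array with L-histidinol and osimertinib (0.34). ARSA, the sulfatase of sulfatide, ran 5.81, 6.26, 6.34 and 6.71, and with L-histidinol 5.85, 6.19, 6.43 and 6.51. Both arrays without a drug were the lowest, and ARSA rose by 0.78 ± 0.10, 0.56 ± 0.10 and 0.40 ± 0.10 with the combination, osimertinib and alpelisib. The alpelisib calls of HEXA and ARSA were both lost without any 1 of 5 arrays, the vehicle array and the 4 with a single drug (0.22, adjusted p = 0.293 for HEXA and 0.37, adjusted p = 0.218 for ARSA without the alpelisib array). The other ARSA probe set, a dim one, gave -0.13 ± 0.16 for the combination, and with the mean of both the combination value was 0.32 (adjusted p = 0.0528). PPT1, which removes palmitate from proteins, fell with the combination (-0.21 ± 0.06) and rose with L-histidinol (0.14 ± 0.04, just past the threshold). Its combination call was lost without the vehicle array (-0.16) or either array with both drugs, and its L-histidinol call without any 1 of the 6 arrays with a drug (0.12 to 0.14).

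The 2 cofactors rose with every drug treatment, in different proportions. PSAP, the precursor of the saposins that present sphingolipids to hydrolases, ran 11.41, 11.96, 12.14 and 12.53, and with L-histidinol 11.81, 12.13, 12.41 and 12.58. It was lowest with vehicle, and rose by 0.95 ± 0.07 with the combination, 0.67 ± 0.07 with osimertinib, 0.44 ± 0.07 with alpelisib and 0.22 ± 0.05 with L-histidinol, and its other probe set gave 0.98 ± 0.08 for the combination. The alpelisib call of PSAP was lost without the alpelisib array (0.40, adjusted p = 0.0646) or its L-histidinol partner, and the L-histidinol call without the osimertinib array (0.21, adjusted p = 0.0605) or its partner. NPC2, which hands cholesterol to NPC1, was higher with alpelisib (0.57 ± 0.06) than with osimertinib (0.21 ± 0.06), and that difference itself passed (-0.35 ± 0.06 for osimertinib minus alpelisib, adjusted p = 0.00229). That call was lost without the alpelisib array (-0.34, adjusted p = 0.0764) or the array with L-histidinol and osimertinib (-0.32, adjusted p = 0.0592). The osimertinib call of NPC2 was lost without the osimertinib array (0.18, adjusted p = 0.15), the L-histidinol array or the array with both of these agents. Its highest value, 12.09, was on the alpelisib array. NPC2 fell with L-histidinol by 0.21 (SE 0.04), in 4 of 4 pairs.

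All 7 membrane proteins rose with the combination, 6 with osimertinib, 2 with alpelisib and 3 with L-histidinol. With single arrays left out, 0 to 4 rose with alpelisib (0 without the array with L-histidinol and alpelisib, 1 without the alpelisib array) and 1 to 3 with L-histidinol (1 without any of the 4 single-drug arrays). SCARB2, which carries glucocerebrosidase to the lysosome, ran 9.02, 9.43, 9.72 and 10.10, and with L-histidinol 9.11, 9.57, 9.81 and 10.12. The 2 sets of arrays nearly coincided, and SCARB2 rose by 1.04 ± 0.06 with the combination (2.06-fold), 0.70 ± 0.06 with osimertinib and 0.43 ± 0.06 with alpelisib. Its 3 other probe sets gave 0.98, 0.52 and 0.15 for the combination, of which the first 2 passed, and the mean of the 4 gave 0.67 for the combination and 0.21, with no call, for alpelisib (adjusted p = 0.124). The alpelisib call was also lost without the array with L-histidinol and alpelisib (0.40, adjusted p = 0.0841). NPC1, the cholesterol exporter of the membrane, rose by 0.56 ± 0.06 with the combination and 0.27 ± 0.06 with osimertinib (0.24, adjusted p = 0.098 without the array with L-histidinol and osimertinib). The tetraspanin CD63 rose with all 3 drug treatments (0.45 ± 0.05, 0.25 ± 0.05 and 0.28 ± 0.05 for the combination, osimertinib and alpelisib), losing its alpelisib call without the alpelisib array (0.30, adjusted p = 0.0523) or its partner with L-histidinol (0.25, adjusted p = 0.158). MCOLN1, a calcium channel with 2 copies of the core in the promoter shown above, rose with the combination (0.48 ± 0.08) and with L-histidinol (0.22 ± 0.06), and LAMP1, a major glycoprotein of the membrane, by 0.44 ± 0.06 and 0.16 ± 0.04. The L-histidinol call was lost without any of the 4 single-drug arrays for LAMP1 (0.14 to 0.16), and for MCOLN1 without any of these or of the 2 arrays with both drugs (0.20 to 0.22).

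LAMP2 was read by 4 probe sets whose changes differed in size. The probe set used gave 0.23 ± 0.06 for the combination and 0.34 ± 0.06 for osimertinib, whereas the 3 others gave 1.18 ± 0.07, 1.03 ± 0.08 and 1.28 ± 0.10 for the combination and 0.64 to 0.80 for osimertinib. LAMP2 is known to be spliced into isoforms with different ends, and which isoform each probe set reads was not examined. With alpelisib the probe set used did not pass (0.09 ± 0.06) and the others did, at 0.34 to 0.46. All 4 probe sets passed for osimertinib and the combination, and all 4 had a change between -0.07 and 0.01 with L-histidinol.

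LAMP3, a family member known from lung type II cells and mature dendritic cells, had the largest change of any member with L-histidinol. It ran 4.92, 5.36, 5.91 and 6.97 without L-histidinol, and 7.17, 6.70, 7.92 and 7.76 with it. The 4 pairs gave 2.25 with vehicle, 2.02 with osimertinib, 1.34 with alpelisib and 0.79 with both drugs, and the fit gave 1.60 ± 0.18 (3.03-fold, adjusted p = 0.00021). The gap between the sets of arrays was widest without a drug and narrowest with both. The fit with interactions put the departure with alpelisib at -1.07 ± 0.15, which did not pass (adjusted p = 0.115). LAMP3 rose by 1.32 ± 0.26 with the combination, as 2.05 without and 0.59 with L-histidinol, and by 0.78 when the array with both drugs was left out. Its osimertinib value, 0.87 ± 0.26, lost its call without the vehicle array (0.44, adjusted p = 0.315) or the array with L-histidinol and osimertinib (0.59, adjusted p = 0.267). The ratio of the 3′ to the 5′ control probe sets of ACTB, which reports RNA integrity, was 1.04 to 1.07 on the arrays without L-histidinol and 1.10 to 1.15 on those with it, and its part in the L-histidinol values was not tested. For GAPDH the ratio was 0.966 to 1.01 over all arrays.

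**Figure D3:**
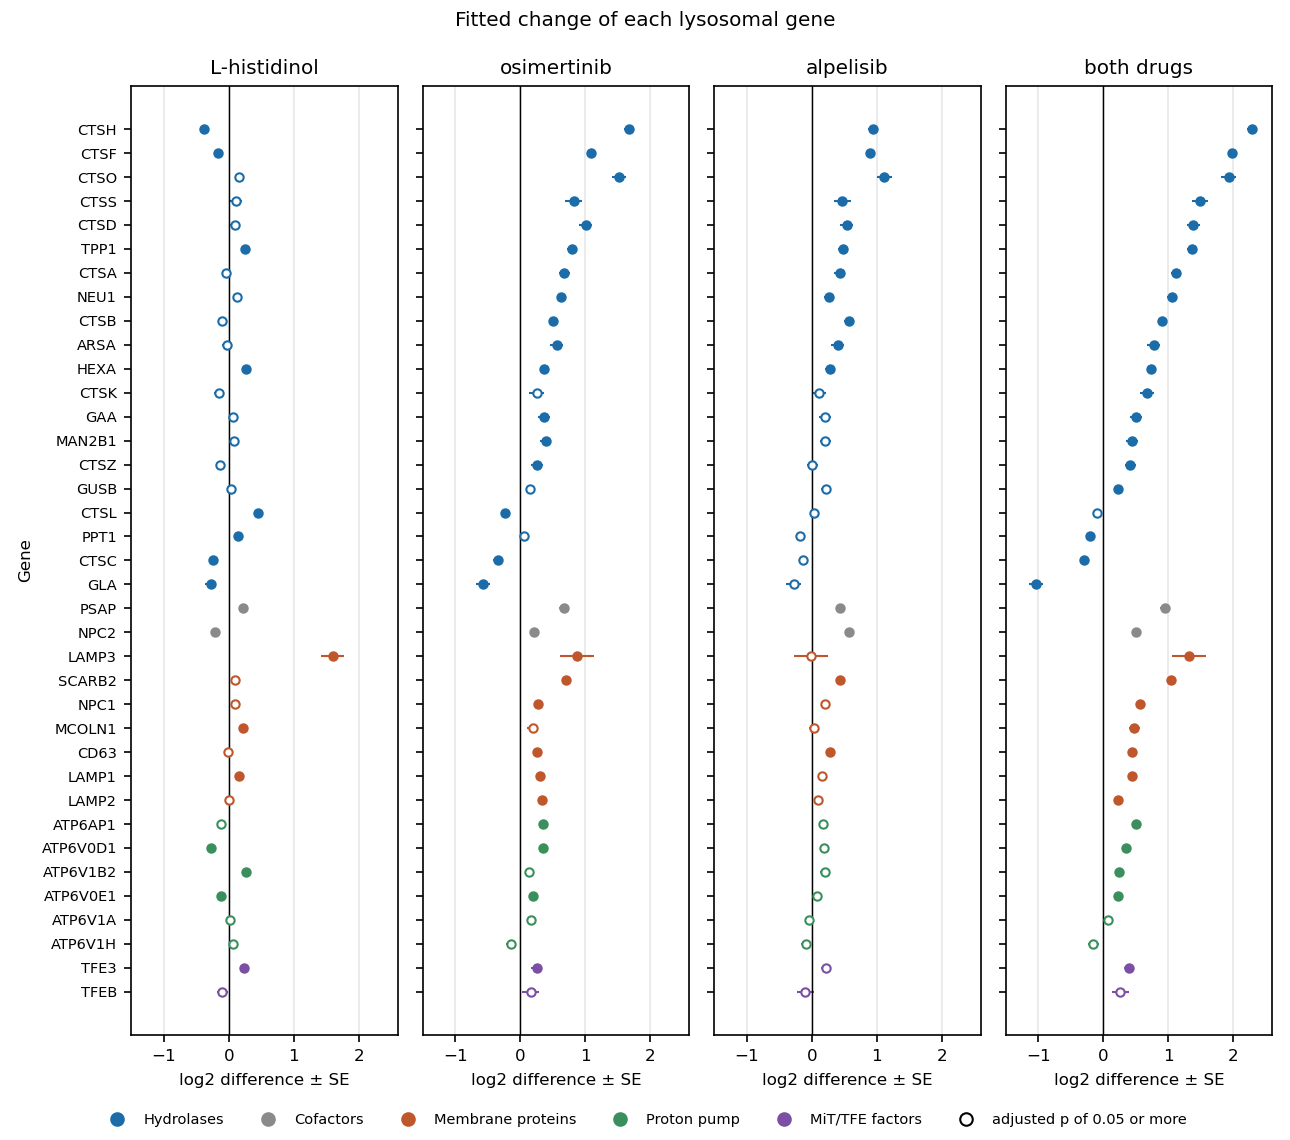
Fitted log2 difference (horizontal axes) of the 37 genes (rows, coloured by class) for L-histidinol, osimertinib, alpelisib and both drugs, with bars of 1 SE; filled points passed an adjusted p of 0.05. Points shift to the right from alpelisib to both drugs in most rows, GLA lies at -1.04 with both drugs, and LAMP3 lies at 1.60 with L-histidinol.

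The proton pump subunits had the smallest median changes of the 3 classes with each drug treatment. With the combination ATP6AP1, an accessory protein of pump assembly, rose by 0.50 ± 0.06. ATP6V0D1, a subunit at the base of the membrane sector, rose by 0.35 ± 0.06, and ATP6V1B2, of the ATP-hydrolysing head, by 0.25 ± 0.07. ATP6V0E1, a small membrane subunit, rose by 0.23 ± 0.05. Its other bright probe sets gave 0.41 and 0.40 for the combination and 0.23 and 0.36 for osimertinib, all called. The dimmer ones gave 0.03 to 0.41 for the combination, with the dimmest alone called (0.41), and -0.09 to 0.18 without a call for osimertinib. With osimertinib 3 of 6 rose, ATP6AP1 and ATP6V0D1 by 0.35 each and ATP6V0E1 by 0.20, the last losing its call without the osimertinib array (0.17, adjusted p = 0.165), the L-histidinol array or the array with both of these agents. The combination call of ATP6V1B2 was lost without the vehicle array (0.17) or the array with both drugs (0.16). With alpelisib 0 of 6 passed in the limma fit, with changes of -0.09 to 0.20, and 3 were higher at an unadjusted p under 0.05. ATP6V1A, the catalytic subunit, lay between 10.15 and 10.42 and ATP6V1H, a regulatory subunit, between 8.56 and 8.83 on all 8 arrays, with 0.07 ± 0.06 and -0.15 ± 0.08 for the combination. L-histidinol lowered ATP6V0D1 by 0.27 in the fit (-0.35, -0.30, -0.28 and -0.15 in the 4 pairs) and ATP6V0E1 by 0.12, a call that was lost whichever of the 8 arrays was left out (-0.14 to -0.10), and raised ATP6V1B2 by 0.26 (0.39, 0.28, 0.26 and 0.13). The L-histidinol pairs had the same sign within each of these subunits, with the smallest difference on the arrays with both drugs for ATP6V0D1 and ATP6V1B2. Centring each array on its median lowered the median pump change with the combination to 0.11.

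TFE3 and TFEB, the MiT/TFE factors of the list, were read by probe sets that differed in their changes. TFE3 ran 9.47, 9.80, 9.86 and 10.03, and with L-histidinol 9.92, 10.02, 10.02 and 10.16. It was lowest with vehicle, and rose by 0.40 ± 0.08 with the combination, 0.25 ± 0.08 with osimertinib and 0.24 ± 0.06 with L-histidinol. The osimertinib call was lost without any 1 of 5 arrays (0.10, adjusted p = 0.372 without vehicle) and the value was 0.39 without the L-histidinol array; the combination value was 0.26 without vehicle. The L-histidinol call was lost without the alpelisib array or its partner (0.24 in both), and with the mean of its probe sets 0 of the 3 calls remained. TFEB ran 4.83, 4.80, 5.19 and 5.21, and with L-histidinol 4.93, 4.76, 4.88 and 5.06, a dim probe set without a call. The other TFEB probe set, with a mean log2 of 4.82, rose with osimertinib (0.83 ± 0.14) and the combination (0.92 ± 0.14) and fell with L-histidinol (-0.35 ± 0.10). The nuclear location of either factor is not measured by these arrays.

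The next comparisons asked what each drug added to the other. Adding alpelisib to osimertinib raised 17 members and lowered 2, against 13.4% of all genes called, 5.96% higher and 7.41% lower. CTSF rose by 0.90 ± 0.07, CTSS by 0.67 ± 0.13, CTSH by 0.62 ± 0.08 and TPP1 by 0.56 ± 0.08, while GLA fell by 0.48 and PPT1 by 0.26. Of these 6 calls those of CTSS, GLA and PPT1 were lost without the array with both drugs (0.53, -0.25 and -0.25) or that with L-histidinol and osimertinib (0.51, -0.49 and -0.22), and those of GLA and PPT1 also without the osimertinib array (-0.46 and -0.30). The PPT1 call was lost without any 1 of the 6 arrays with a drug. Among the classes, 11 of 20 hydrolases, 4 of 7 membrane proteins and both cofactors rose, and 0 of 6 pump genes passed in the limma fit (1 at an unadjusted p under 0.05). These counts depended on single arrays: 4 members rose without the array with L-histidinol and osimertinib, 5 without the osimertinib array and 7 without the array with both drugs. Adding osimertinib to alpelisib raised 22 members and lowered 1, GLA, against 29% of all genes called, 14.6% higher and 14.4% lower, with CTSH at 1.35 ± 0.08, LAMP3 at 1.33 ± 0.26 and CTSF at 1.08 ± 0.07.

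Between the single drugs, 9 members were higher with osimertinib and 2 lower, against 11% of all genes called, 5.54% higher and 5.51% lower. CTSH (0.73 ± 0.08), CTSD (0.47 ± 0.10), CTSO (0.39 ± 0.11) and NEU1 (0.37 ± 0.07) were the highest with osimertinib, and NPC2 and CTSL (-0.27 ± 0.06) were the ones higher with alpelisib. The 9 became 1 without any of the 4 single-drug arrays and 14 without any of the other 4. The doses of the 2 drugs are not matched, so the values stand side by side at the doses used.

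Departures from additive effects did not pass for any member. For the combination against the sum of the single drugs 0 of 37 were called in the limma fit, against 0.0303% of all genes, and 4 members, all below 0, had an unadjusted p under 0.05, as did 8.84% of all genes. CTSO came closest, at -0.71 ± 0.15 (adjusted p = 0.164). The combination value of CTSO was 1.93, beside 1.52 for osimertinib and 1.12 for alpelisib. CTSH followed at -0.32 ± 0.11 and NPC2 at -0.28 ± 0.08, and the median over the members was -0.05. For the interaction of L-histidinol with osimertinib, 0 of 37 were called in the limma fit, against 0% of all genes, and 6 had an unadjusted p under 0.05 (8.36% of all genes did), CTSS lying lowest at -0.46 ± 0.13. With alpelisib the counts were 0, 0% and 5 (5.05% of all genes had such a p). When the prior was instead estimated from that fit, 1 member was higher and 3 were lower for each L-histidinol interaction, where 576 of all genes were higher and 320 lower with osimertinib, and 155 and 123 with alpelisib. The design leaves 1 residual degree of freedom for the L-histidinol interactions, so departures could be missed. On simulated data the fit recovered 0% of L-histidinol by osimertinib departures of 0.5 log2 and 50.5% of those of 1. For the drug by drug departures it recovered 0% at 0.5 and 78% at 1. The absence of calls therefore does not show that effects were additive.

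With L-histidinol members rose and fell within the hydrolases, the cofactors and the pump genes. Of the hydrolases CTSL, HEXA, TPP1 and PPT1 rose, and CTSH, GLA, CTSC and CTSF fell. Of the membrane proteins LAMP3, MCOLN1 and LAMP1 rose, and SCARB2 (0.09 ± 0.04), NPC1 (0.10 ± 0.04), CD63 (-0.02 ± 0.03) and LAMP2 did not pass. The number that rose became 5 when the osimertinib array or its partner with L-histidinol was left out and 6 without the alpelisib array or its partner. CTSF kept its call without the vehicle or the L-histidinol array and lost it without any 1 of the other 6 (-0.19 to -0.15).

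Other lysosomal genes, from lists of the same pathway, are read against the shares of all genes given above. Of 25 other hydrolases and activators 21 rose and 2 fell with the combination (median 0.60), 17 rose and 1 fell with osimertinib, 5 rose and 1 fell with alpelisib, and 5 rose and 9 fell with L-histidinol. GALC, which degrades galactosylceramide, rose by 1.13 ± 0.07 with the combination, acid ceramidase ASAH1 by 1.07 ± 0.08, the carboxypeptidase SCPEP1 by 1.05 ± 0.08 and acid sphingomyelinase SMPD1 by 1.04 ± 0.09. The sulfatase ARSB fell by 0.50 with osimertinib and by 0.55 with alpelisib. Of 25 other membrane proteins 14 rose and 2 fell with the combination (median 0.31), led by the glycoprotein GPNMB at 2.14 ± 0.08, the sialic acid exporter SLC17A5 at 1.84 ± 0.14, the nucleoside transporter SLC29A3 at 1.33 ± 0.08 and the channel TPCN1 at 1.27 ± 0.10. With osimertinib 9 of these 25 rose and 1 fell, with alpelisib 8 and 0, and with L-histidinol 3 and 1. For these membrane proteins the L-histidinol counts are near or below the 11.4% higher and 9.17% lower of all genes. For the 25 other hydrolases and activators, with 5 higher and 9 lower, they are above both shares of all genes. Of these 25 genes 22 had a mean log2 of at least 5. Among the 11627 genes at that level 2397 were higher and 1840 lower, which are larger shares. The 5 higher are near that share of genes, and the 9 lower are above theirs.

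Of 17 other pump subunits 7 rose and 3 fell with the combination (median 0.14). TCIRG1, an isoform of the membrane-sector a subunit, rose by 0.96 ± 0.07 and ATP6V0D2 by 0.59 ± 0.12, whereas ATP6V0A2, another isoform of the a subunit, fell by 0.86 (SE 0.12). With osimertinib 7 rose and 2 fell, with alpelisib 2 and 1, and with L-histidinol 2 and 2, the last pairs of counts being near the shares of all genes (7.08% and 4.38% with alpelisib, 11.4% and 9.17% with L-histidinol). Of 15 genes of nutrient sensing at the lysosome 10 rose and 3 fell with the combination (median 0.32), including FNIP2 (1.04 ± 0.09) and FLCN (0.69 ± 0.10), which act together on Rag GTPases, and the GTPases RRAGD (0.90 ± 0.12) and RRAGC (0.83 ± 0.07). With osimertinib 7 rose and 0 fell, with alpelisib 1 and 0, and with L-histidinol 5 and 1, where MITF fell by 0.31. The alpelisib counts of this list, and the 1 that fell with L-histidinol, are near or below the shares of all genes. Of 9 genes that sort hydrolases to the lysosome 5 rose and 1 fell with the combination (median 0.15), GNPTG at 0.75 ± 0.08 and the mannose 6-phosphate receptor M6PR at -0.45 ± 0.08. With each other treatment 1 of these 9 rose, and M6PR fell with osimertinib. These single genes are near or below the shares of all genes (16.4% higher and 14% lower with osimertinib, 7.08% and 11.4% higher with alpelisib and L-histidinol).

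**Figure D4:**
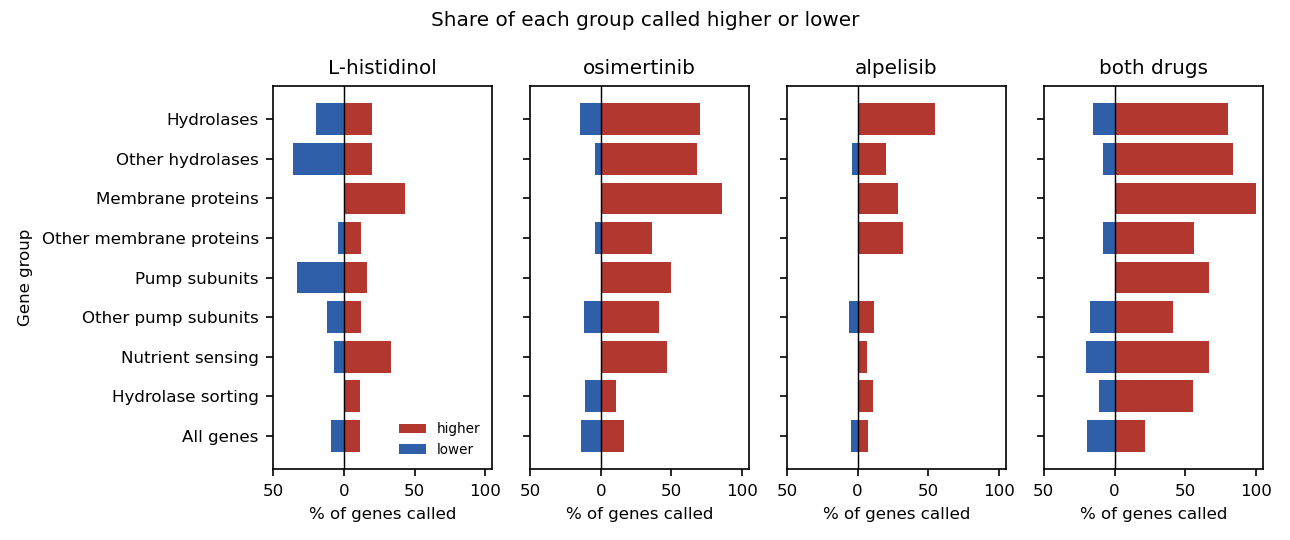
Percent of the genes in each group (rows) called higher (red, to the right) or lower (blue, to the left) at an adjusted p below 0.05, for L-histidinol, osimertinib, alpelisib and both drugs; groups named other are genes outside the list of 38. With both drugs the red bars of the hydrolases and membrane proteins reach further than the 21.4% of all genes, and with L-histidinol the bars run in both directions.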

How the data were processed

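Total RNA of NCI-H1975 cells was hybridised to 8 arrays, 1 per condition. Per the labels, biotinylated cRNA was made by the manufacturer's standard procedure. The deposited values are linear signal intensities per probe set, made by the authors with RMA and affy per the submitters' processing notes; the sources used here give no versions. As foreseen for linear values, log2 of the deposited intensity was taken, with no further scaling.

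Of 54675 probe sets, 41091 carried 1 gene symbol in the platform annotation and were used. Controls (62), probe sets with several symbols (1801) and with none (11721) were left out. Each of 19775 genes took its probe set with the highest mean, with no filter on dim ones. Of the members 19 had 1 probe set and 18 several, and 17 were read by a probe set marked as possibly cross-hybridising (suffix _s_at or _x_at). No intensity column lacked a sample.

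Differences were fitted in limma 3.58.1 (R 4.3.3, statmod 1.5.0) as L-histidinol plus drug treatment of 4 levels, with an intensity trend (3 residual and 8.08 prior degrees of freedom), with Benjamini-Hochberg adjustment across the 19775 genes. L-histidinol interactions were fitted with every 2-way term, which leaves 1 residual degree of freedom, and with the additive prior held. The number of arrays limits the precision. Scripts were tested on simulated data.

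The members and lists were chosen with earlier results of these data known. Values on every array are given for the 16 members with the largest change in any main comparison and for TFEB and TFE3; of other lists, up to 4 called genes per main comparison are named. Alternatives were the mean of a gene's probe sets, marked probe sets left out, median centring, quantile normalization, an offset of 16, genes with mean log2 of at least 5, no intensity trend, other interaction terms and priors, and each array left out. Other tools were matplotlib 3.10.9 for figures, and pandas 2.3.3 with numpy 2.4.6 under Python 3.11.15 for tables.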

Additional observations from a re-analysis of the deposited data

How the results depend on the processing

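No paired analysis was possible because each condition has 1 array, so no replicate numbers are shared; the 4 array pairs that share a drug treatment are already terms of the model. With single arrays left out, the combination kept 28 to 30 members higher and 2 to 4 lower. Counts for osimertinib were 18 to 26 higher and 1 to 3 lower, for alpelisib 5 to 19 and 0 to 1, and for L-histidinol 5 to 10 and 4 to 6. For the combination against osimertinib they were 4 to 17 and 0 to 2, against alpelisib 17 to 26 and 1 to 1, and for osimertinib against alpelisib 1 to 14 and 0 to 3. Without the marked probe sets 28 members were tested. Counts then were 4 higher and 4 lower for L-histidinol, 17 and 1 for osimertinib, and 9 higher for alpelisib and for the combination against osimertinib. They were 14 higher for the combination against alpelisib, and 1 lower for osimertinib against alpelisib. On that setting HEXA reversed for alpelisib (-0.20), TPP1 for L-histidinol (-0.00) and the median of pump subunits for L-histidinol (0.01); the other probe sets are dimmer, and the cause was not tested. Without the intensity trend the counts were 6 higher and 3 lower for L-histidinol, 7 higher for alpelisib, 6 higher and 0 lower for the combination against osimertinib, and 2 higher and 0 lower for osimertinib against alpelisib. The mean of probe sets gave 6 higher for L-histidinol. Centring on the median gave 2 lower for alpelisib, 5 for the combination and 3 for the combination against alpelisib. With the prior estimated from the fit with 1 residual degree of freedom, each L-histidinol interaction gave 1 higher and 3 lower. Over the counts of members called and all settings, 231 equalled or lay near the main count, 44 were clearly lower and 13 clearly higher. Of the values of single genes and class medians, 1180 kept their call or, for medians, stayed within the spread of the array pairs. A call was lost in 98 and gained in 8, 35 medians moved beyond that spread, and 3 values reversed.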
